A study of Mus musculus with 8 samples.

Results

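The 10 genes described here encode enzymes that clear superoxide and peroxides and the thioredoxin that recharges some of them. They are the glutathione peroxidases Gpx1 and Gpx4, the peroxiredoxins Prdx1, Prdx2, Prdx5 and Prdx6, catalase (Cat), the superoxide dismutases Sod1 and Sod2, and thioredoxin (Txn1). They were picked by symbol, all 10 are among the 55487 genes of the deposited tables, and all 10 passed the filter on low counts that left 7362 genes for testing. The mice were males of 13 weeks, and platelet RNA was sequenced from 4 labelled Dnmt3a+/-, heterozygous for a methyltransferase that sets new DNA methylation, and from 4 WT littermates, with 1 library per mouse. Platelets came from heart blood by centrifugation, and beads against Ter119 and CD45 took away red cells and leukocytes. The sources used here do not say what kind of Dnmt3a allele it is or which cells carry it. The labels call the samples biological replicates.

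Superoxide dismutases turn superoxide into hydrogen peroxide, Sod1 in the cytosol and Sod2 in the mitochondrial matrix. Catalase, glutathione peroxidases and peroxiredoxins then reduce the peroxide. Glutathione peroxidases draw on glutathione, and most peroxiredoxins draw on thioredoxin. Hydrogen peroxide is both a by-product and a signal of platelet activation, and Gpx4 is the enzyme that reduces lipid peroxides within membranes. Platelets have no nucleus, so their own transcripts are inherited from megakaryocytes.

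Gpx1 and Gpx4 are selenoproteins: selenocysteine sits in their active site and is encoded by TGA, which elsewhere ends translation. The lines that follow show that codon in capitals with 30 bases on each side, read from GENCODE M21 transcripts. They are shown because Gpx4 has a transcribed processed copy, Gpx4-ps2, whose counts bear on the measured level of Gpx4. The capital at position 18 marks the base at which the copy and Gpx4 differ in this stretch (C18T, Gpx4 first, counted from 1 at the first base shown).
Gpx1: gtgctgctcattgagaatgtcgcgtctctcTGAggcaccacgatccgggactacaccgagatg
Gpx4: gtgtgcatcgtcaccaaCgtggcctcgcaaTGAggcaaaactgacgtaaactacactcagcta
Gpx4-ps2: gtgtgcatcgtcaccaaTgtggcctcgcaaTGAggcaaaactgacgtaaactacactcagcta
The codon lies at chr9:108339451-108339453 (GRCm38, plus strand) in Gpx1, as codon 47 of 201, and at chr10:80054737-80054739 (GRCm38, plus strand) in Gpx4. Gpx4-ps2 lies elsewhere on chromosome 10, at 45875291 to 45876086 on the plus strand. Over 733 bases aligned to the longest coding transcript of Gpx4 (995 bases) it matched at 731. In a search with all coding transcripts of Gpx4, the longest aligned stretch was 762 bases at 99.7% identity.

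Total counts ran from 15620972 to 22160394 in the Dnmt3a+/- libraries and from 15185218 to 17398666 in the WT libraries. The preparations carried platelet RNA: 15 of 15 platelet markers had at least 10 counts in every library and took 4.87% to 5.63% of counts under Dnmt3a+/- and 4.54% to 5.54% under WT. Of 20 leukocyte markers 16 had a count in some library. At least 10 counts in every library were held by 3, Csf1r (11 to 61), Adgre1 (11 to 69) and Nkg7 (53 to 106). The 4 others (Cd3e, Cd3g, Elane and Camp) had 0 counts in all 8 libraries. Taken alone, a 0 in 1 library allows up to 3 expected counts there by counting error, and all 8 at a shared level allow fewer. The whole leukocyte list took at most 0.00205% of counts under Dnmt3a+/- and 0.00134% under WT. Its 5 tested genes had 4 log2 fold changes above 0 and 1 below (median 0.41), where 49% of all genes tested lay above 0. WT replicate 1 stood apart in red cell transcripts, at 2.05% of counts against 0.210% to 0.493% in the other 7 libraries. WT replicate 3 had 24.8% of counts in mitochondrially encoded genes against 16.7% to 18.96% in the others. Hepatocyte markers took 0.00088% to 0.0187% of counts under Dnmt3a+/- and 0.00312% to 0.217% under WT. Dnmt3a stood at 9.96, 11.5, 24.2 and 19.5 CPM (counts per 1000000 after TMM scaling) in Dnmt3a+/- replicates 1 to 4, against 21.2, 22.1, 19.8 and 18.2 CPM in WT replicates 1 to 4. The library labelled Dnmt3a+/- replicate 3 thus lay above the WT range and that labelled Dnmt3a+/- replicate 4 within it, so every direction given here is between labels.

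Platelet RNA held very unequal amounts of these transcripts, and the order was led by 3 peroxide-reducing enzymes. In TPM, which corrects for transcript length and so allows genes to be compared, the mean over 8 libraries was 3693 ± 342 for Prdx6, 2347 ± 392 for Gpx4 and 616 ± 52.5 for Cat (SD, n = 8). Next came Prdx5 at 394 ± 93.9, Sod1 at 309.5 ± 37.0 and Gpx1 at 226 ± 64.8 TPM. Prdx1 averaged 58.4 ± 9.10, Txn1 33.5 ± 5.63, Prdx2 19.8 ± 11.5 and Sod2 6.16 ± 1.62 TPM (SD, n = 8). Prdx6 ranked 41 and Gpx4 65 among all genes by mean TPM, while Sod2 ranked 2718.

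The order held within libraries except between a few neighbours. Prdx6 lay above Gpx4, Gpx4 above Cat and Cat above Prdx5 in 8 of 8 libraries. Prdx5 lay above Sod1 in 5 of 8 libraries only, so those neighbours did not differ beyond their spread. Sod1 lay above Gpx1 and Txn1 above Prdx2 in 7 of 8. Together the 10 genes took 0.736% to 0.831% of TPM in the Dnmt3a+/- libraries and 0.636% to 0.836% in the WT libraries, and Prdx6, Gpx4 and Cat gave 85.1% to 87.98% of that sum under Dnmt3a+/- and 84.6% to 87.98% under WT. The lowest sum was in WT replicate 3, the library with the high mitochondrial share.

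**Figure D1:**
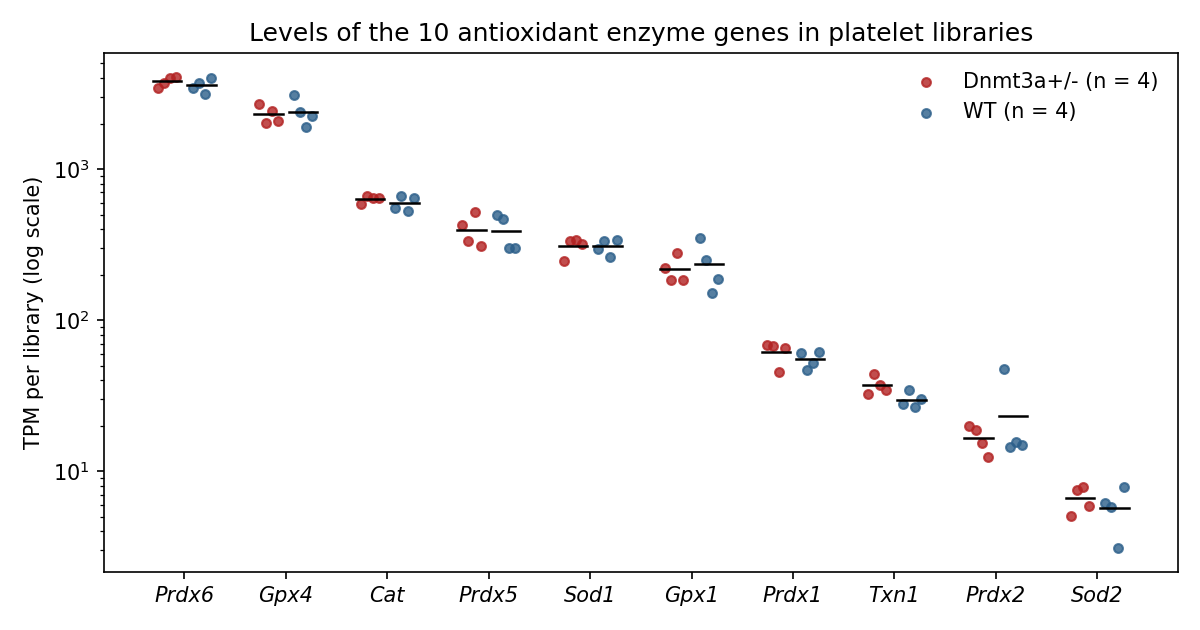
TPM of the 10 genes on a log axis, with 1 point per library, the 4 Dnmt3a+/- libraries left of the 4 WT libraries, and a black bar at each group mean. Prdx6 and Gpx4 lead, with means of 3693 and 2347 TPM over 8 libraries, and 1 WT library, replicate 1, stands high for Prdx2 at 47.6 TPM.

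No member differed between the labels past the threshold. The edgeR quasi-likelihood test, adjusted by Benjamini-Hochberg over 7362 genes at 0.05, called 0 of 10 members and 0 of all genes (0% called). DESeq2 and limma also called 0 members, and over all genes DESeq2 called 9 and limma 0. At an unadjusted p under 0.05 edgeR had 1 member, Txn1, among the higher ones, against 4.92% of all genes (1.73% higher and 3.19% lower). Of the 10 members 5 had log2 fold changes above 0 and 5 below, with a median of 0.03, where 49% of all genes tested lay above 0 and their median was -0.0050. In bulk RNA, fewer cells of a type and less RNA per cell cannot be told apart.

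**Figure D2:**
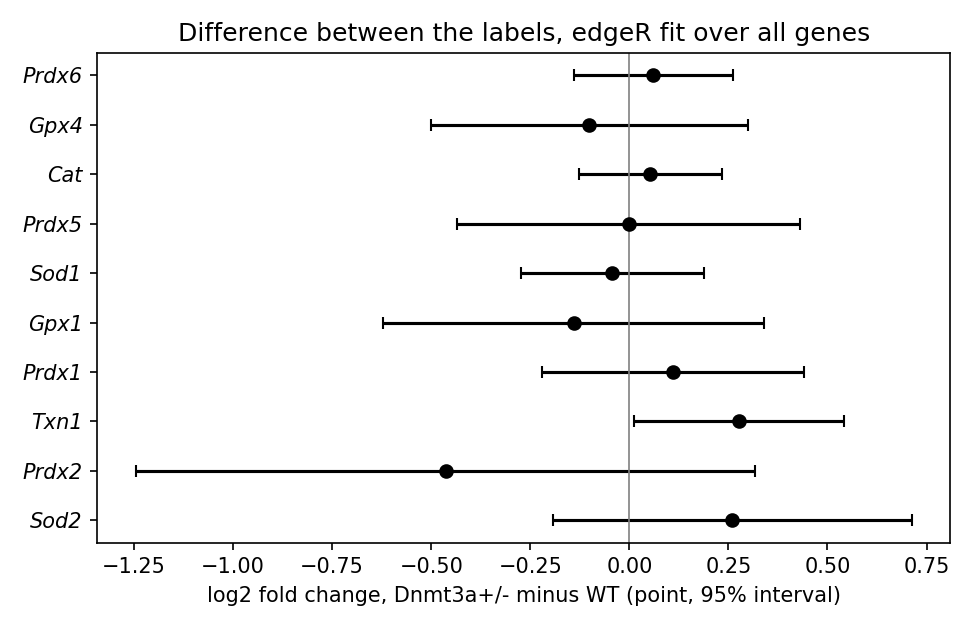
Log2 fold change of each gene, Dnmt3a+/- minus WT, as a point with its 95% interval from the edgeR fit. The intervals are narrowest for Cat (-0.13 to 0.23) and Prdx6 (-0.14 to 0.26) and widest for Prdx2 (-1.25 to 0.32), and the Txn1 interval alone lies above 0, before any adjustment.

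Txn1, the cytosolic thioredoxin that reduces the disulphides of peroxiredoxins and other proteins, had the smallest p of the 10. It stood at 27.5, 35.4, 30.3 and 26.8 CPM in Dnmt3a+/- replicates 1 to 4, against 23.3, 26.1, 25.5 and 24.3 CPM in WT replicates 1 to 4. In CPM all 4 Dnmt3a+/- values lay above all 4 WT values, and labels without overlap were a pattern seen in 2.54% of all genes tested. In TPM they did overlap, at 32.7, 44.3, 37.1 and 34.6 in the Dnmt3a+/- libraries against 27.7, 34.6, 26.8 and 30.2 in the WT libraries. Group means were 30 ± 3.88 CPM under Dnmt3a+/- and 24.8 ± 1.27 CPM under WT (SD, n = 4 each). The log2 fold change was 0.28 (SE 0.12, 95% interval 0.01 to 0.54, edgeR adjusted p = 0.986). Dnmt3a+/- replicate 2 held the highest value, and without it the difference was 0.18.

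In CPM after TMM scaling, Cat and Prdx6 were among the steadiest transcripts of the platelet libraries. In TPM, which is scaled otherwise, Cat ran from 527 to 668 and Prdx6 from 3125 to 4090 over the 8 libraries. Steadiness was not ranked in TPM. Catalase, the haem enzyme that breaks down hydrogen peroxide without a reducing partner, stood at 1357, 1451, 1425 and 1367 CPM in Dnmt3a+/- replicates 1 to 4, against 1272, 1365, 1357 and 1404 CPM in WT replicates 1 to 4. The values interleave, and the highest library exceeded the lowest by 1.14 times. The SD of log2 CPM over the 8 libraries was 0.06 for Cat, place 19 from the steadiest of 7362 genes and place 3 of 158 genes within 2-fold of its level. The log2 fold change of Cat was 0.05 (SE 0.08, edgeR adjusted p = 0.998).

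Prdx6, a peroxiredoxin with a single catalytic cysteine that uses glutathione and also has phospholipase activity, stood at 3212, 3229, 3618 and 3443 CPM in Dnmt3a+/- replicates 1 to 4, against 3172, 3076, 3214 and 3484 CPM in WT replicates 1 to 4. The groups overlapped, with WT replicate 2 lowest and Dnmt3a+/- replicate 3 highest. Its SD of log2 CPM was 0.08, place 106 of 7362 genes and place 8 of 75 at like level. The log2 fold change was 0.06 (SE 0.09, edgeR adjusted p = 0.998). Its close relative Prdx6b had 0 or 1 count per library.

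Gpx4, Gpx1 and Prdx5 varied in part together from library to library, without following the labels. Gpx4 stood at 1506, 1007, 1281 and 963 CPM in Dnmt3a+/- replicates 1 to 4, against 1725, 1163, 1139 and 1074 CPM in WT replicates 1 to 4. Gpx1, the main cytosolic glutathione peroxidase, stood at 118, 98.95, 146.5 and 93.8 CPM in Dnmt3a+/- replicates 1 to 4, against 188, 122, 93.9 and 99.8 CPM in WT replicates 1 to 4. Prdx5, a peroxiredoxin of mitochondria, peroxisomes and cytosol, stood at 219.7, 167, 259 and 148 CPM in Dnmt3a+/- replicates 1 to 4, against 253, 215, 175 and 151 CPM in WT replicates 1 to 4. All 3 genes had their lowest Dnmt3a+/- value in replicate 4, and their highest WT value in replicate 1. The other extremes differed. The highest Dnmt3a+/- value was in replicate 1 for Gpx4 and in replicate 3 for Gpx1 and Prdx5. The lowest WT value was in replicate 3 for Gpx1 and in replicate 4 for Gpx4 and Prdx5. Group means overlapped within their spread, for Gpx4 at 1189 ± 254 CPM under Dnmt3a+/- and 1275 ± 302 CPM under WT, for Gpx1 at 114 ± 23.9 CPM under Dnmt3a+/- and 126 ± 43.1 CPM under WT, and for Prdx5 at 198.4 ± 50.3 CPM under Dnmt3a+/- and 198.6 ± 44.97 CPM under WT (SD, n = 4 each). Log2 fold changes were -0.10 (SE 0.18) for Gpx4, -0.14 (SE 0.22) for Gpx1 and -0.0017 (SE 0.20) for Prdx5, with edgeR adjusted p-values of 0.998, 0.998 and 0.999. Without WT replicate 1 those of Gpx4 and Gpx1 turned to 0.08 and 0.12.

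These 3 transcripts share a high GC content, which the choice of genes did not use. The longest coding transcript of Gpx4 holds 60.2% G and C, that of Prdx5 58.3% and that of Gpx1 57.2%, above 97.5%, 93.4% and 89.7% of the tested genes that have a coding transcript. The other 7 members lay between 42.2% (Sod2) and 53.2% (Sod1), around the median of 49.4%. Over the 6783 tested genes with a coding transcript, the median log2 deviation of the 1696 most GC-rich genes minus that of the 1696 most GC-poor genes was 0.21, -0.26, 0.19 and -0.31 in Dnmt3a+/- replicates 1 to 4, against 0.38, 0.10, -0.13 and -0.16 in WT replicates 1 to 4. Gpx1 and Prdx5 deviated with the sign of that contrast in 8 of 8 libraries and Gpx4 in 7 of 8, while the other members did so in 2 to 5 of 8. After each library's trend with GC was removed, the SD of log2 CPM over the 8 libraries was 0.16 for Gpx4 (0.29 before), 0.17 for Prdx5 (0.32 before) and 0.24 for Gpx1 (0.36 before). It was 0.16 for Sod1 (0.13 before) and 0.24 for Prdx1 (0.23 before), and it was 0.56 for Prdx2 (0.57 before), 0.30 for Sod2 (0.31 before), 0.18 for Txn1 (0.19 before), 0.08 for Prdx6 (0.08 before) and 0.06 for Cat (0.06 before). Over all 6783 genes the median SD was 0.25 (0.27 before). In that fit, chosen after the data were seen, the log2 fold changes were -0.05 (SE 0.11) for Gpx4, -0.09 (SE 0.15) for Gpx1 and 0.04 (SE 0.11) for Prdx5, with edgeR adjusted p-values of 0.984, 0.973 and 0.988. The source of the GC differences between libraries was not tested, nor was the part of GC content in the values of these 3 members.

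**Figure D3:**
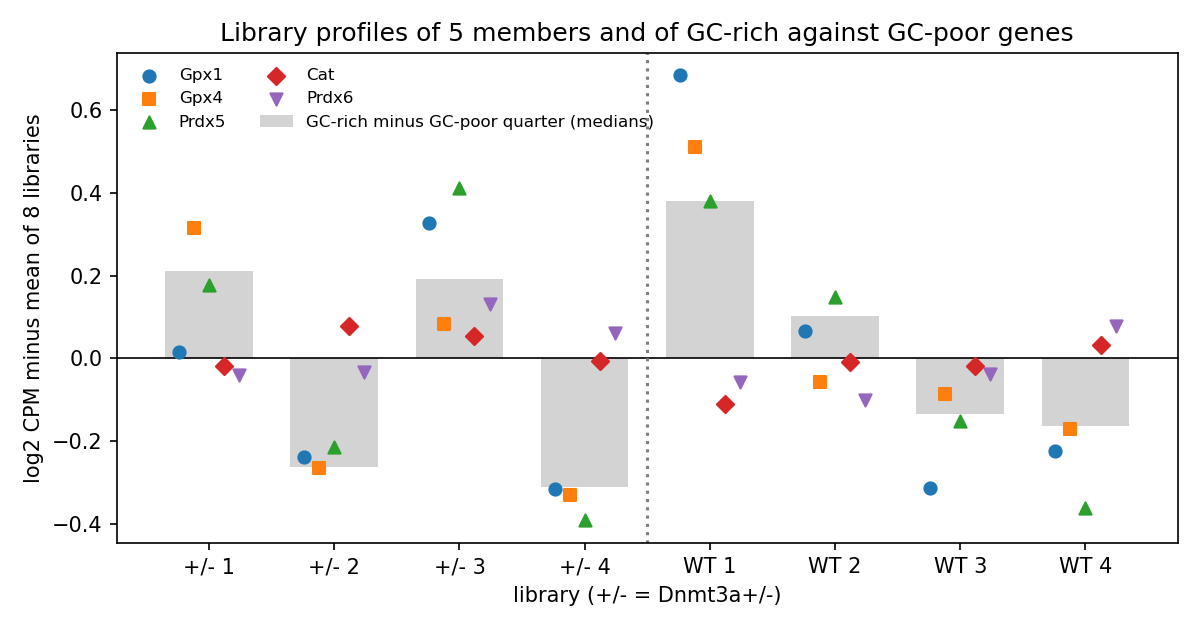
Log2 CPM minus the mean of the 8 libraries for 5 members (points), with the 4 Dnmt3a+/- libraries left of the dotted line and the 4 WT libraries right of it. Grey bars show the median deviation of GC-rich minus GC-poor genes in the same library, from -0.31 in Dnmt3a+/- replicate 4 to 0.38 in WT replicate 1. Points of Gpx1, Gpx4 and Prdx5 lie on the side of the bar in 8, 7 and 8 libraries, and those of Cat and Prdx6 stay near 0.

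The count of Gpx4 is split with its processed copy. Gpx4-ps2 had 2244, 1756, 2127 and 2461 estimated counts in Dnmt3a+/- replicates 1 to 4, against 2728, 2172, 2022 and 1686 in WT replicates 1 to 4. Gpx4 itself had 22839, 16263, 21126 and 22182 counts in the Dnmt3a+/- libraries, against 27089, 21488, 18157 and 16476 in the WT libraries. The copy thus held 8.95% to 9.99% of the summed counts under Dnmt3a+/- and 9.15% to 10.02% under WT. A read that lies wholly within an aligned stretch and spans no differing base matches both genes equally, so the division of counts between them is uncertain. Adding the counts of the copy to Gpx4 left the log2 fold change at -0.10 (SE 0.18, edgeR adjusted p = 0.998). No other near-identical copy of a member, sought at 90% identity over 300 bases, had more than 3 counts in a library, except Trmt112, which overlaps Prdx5 on the opposite strand by 409 bases and had 29 to 54 counts against 2318 to 4263 for Prdx5. The kit keeps strand, but whether the counting used it is not stated.

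**Figure D4:**
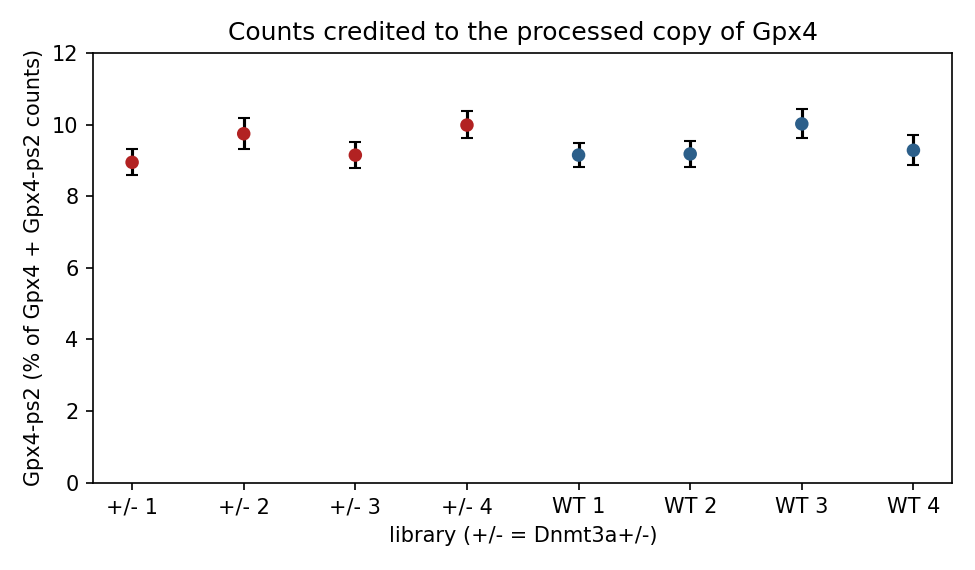
Percent of the summed Gpx4 and Gpx4-ps2 counts credited to Gpx4-ps2, with 95% Wilson intervals that cover counting error only, for the 4 Dnmt3a+/- libraries (left) and the 4 WT libraries. All 8 points lie between 8.95% and 10.02%.

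Prdx2, a peroxiredoxin best known as an abundant protein of red cells, varied most of the 10. It stood at 20.1, 16.8, 14.9 and 12.3 CPM in Dnmt3a+/- replicates 1 to 4, against 43.9, 12.9, 17.6 and 14.02 CPM in WT replicates 1 to 4. WT replicate 1 was far above the other 7 libraries, at 2.94 times their median, and those 7 overlapped. The log2 fold change of -0.46 (SE 0.35, 95% interval -1.25 to 0.32, edgeR adjusted p = 0.998) rested on that library, since without WT replicate 1 it was 0.11. The SD of log2 CPM was 0.57, place 1372 from the steadiest of 1417 genes within 2-fold of its level.

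Hbb-bs and Alas2, a pair of red cell transcripts, were also high in WT replicate 1. Hbb-bs, a beta-globin gene, stood at 8080 CPM in WT replicate 1 and at 241 to 640 CPM in the other 7 libraries, and Alas2, which starts haem synthesis in red cells, at 431.5 CPM there and 6.87 to 25.4 CPM elsewhere. Of 24 red cell markers 12 had at least 10 counts in every library, and Rhag had 0 counts in all 8. Taken alone, a 0 in 1 library allows up to 3 expected counts there. The markers did not all go one way: of 12 tested, 2 had log2 fold changes above 0 and 10 below (median -1.20), and without WT replicate 1 the median was 0.41. Hemgn, a nuclear protein of blood-forming cells, had only 14 to 47 counts per library. It averaged 1.92 ± 0.35 CPM under Dnmt3a+/- and 1.07 ± 0.18 CPM under WT (SD, n = 4 each). Its log2 fold change was 0.83 (SE 0.26, edgeR adjusted p = 0.647). The labels did not overlap for Hemgn, a pattern seen in 2.54% of all genes tested. Sptb, erythroid spectrin, had a log2 fold change of 0.04 (SE 0.12). The list took 0.324% to 0.493% of counts under Dnmt3a+/- and 0.210% to 2.05% under WT. Gpx1, Gpx4 and Prdx5 were also high in WT replicate 1, at 1.88, 1.52 and 1.45 times the median of the other 7 libraries, and the remaining 6 members were at 0.87 to 0.98 times. Among those 6 are Cat and Sod1, at 0.93 and 0.98 times. The part of red cell RNA in these values was not tested.

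**Figure D5:**
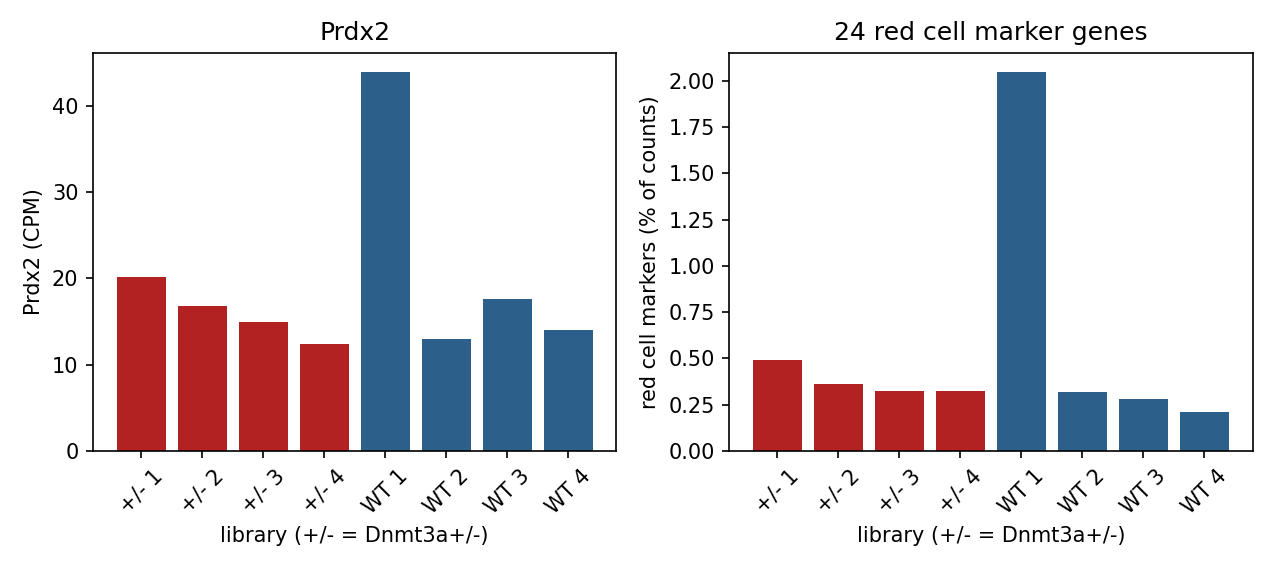
Prdx2 in CPM (left) and the percent of counts from 24 red cell marker genes (right), with 1 bar per library, Dnmt3a+/- libraries in red and WT libraries in blue. WT replicate 1 is the highest bar in both, at 43.9 CPM and 2.05%.

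The genes whose library profile was most like that of Prdx2 were sought among 1965 tested genes of at least 20 CPM. By the root mean square difference of centred log2 CPM over the 8 libraries they were Tent5c (0.20), Clca3a1 (0.25) and H1f2 (0.25), against an SD of 0.57 for Prdx2 itself. Tent5c, a poly(A) polymerase, stood at 107 CPM in WT replicate 1 and at 33.4 to 54.3 CPM in the other 7 libraries. For Gpx1, the member with the next largest SD (0.36), the nearest were Zfp219 (0.11), Ccdc12 (0.12) and Ptpa (0.13).

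The remaining members, Sod1, Prdx1 and Sod2, overlapped between the labels, and Sod2 spread the widest of the 3 (SD of log2 CPM over the 8 libraries 0.31, against 0.23 for Prdx1 and 0.13 for Sod1). Sod1, the copper and zinc enzyme, ranged from 114 to 153 CPM under Dnmt3a+/- and from 136 to 149 CPM under WT, with Dnmt3a+/- replicate 1 the lowest library. Its log2 fold change was -0.04 (SE 0.10), and without Dnmt3a+/- replicate 1 it was 0.04. Prdx1, a cytosolic peroxiredoxin that takes its electrons from thioredoxin, ranged from 43.6 to 67.4 CPM under Dnmt3a+/- and from 43.3 to 59.4 CPM under WT (log2 fold change 0.11, SE 0.15). Sod2, the manganese enzyme of mitochondria, had 71 to 177 counts per library and ranged from 6.001 to 8.79 CPM under Dnmt3a+/- and from 4.46 to 8.35 CPM under WT (log2 fold change 0.26, SE 0.21). Its lowest value was in WT replicate 3, the library with the largest share of mitochondrially encoded counts. The edgeR adjusted p was 0.998 for each of Sod1, Prdx1 and Sod2.

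Transcripts best known from liver, a tissue rich in catalase and glutathione peroxidase, were present at unequal levels. All 19 tested hepatocyte markers had log2 fold changes below 0 (median -3.78, and -4.62 to -3.17 with 1 library left out). By edgeR all 19 had an unadjusted p under 0.05, as 3.19% of all genes did with lower values, and 0 passed the threshold. Only 3 of the 25 listed markers had at least 10 counts in every library. WT replicate 1, at 0.00312% of counts, lay within the Dnmt3a+/- range of 0.00088% to 0.0187%. Alb, serum albumin, stood at 61.7, 0.25, 89.4 and 0.26 CPM in Dnmt3a+/- replicates 1 to 4, against 7.01, 210.5, 949 and 762 CPM in WT replicates 1 to 4. In WT replicates 3 and 4, the libraries with most Alb, Cat stood at 1357 and 1404 CPM and Gpx1 at 93.9 and 99.8 CPM. The Dnmt3a+/- libraries spanned 1357 to 1451 CPM for Cat and 93.8 to 146.5 CPM for Gpx1, and WT replicates 1 and 2 stood at 1272 and 1365 CPM for Cat and at 188 and 122 CPM for Gpx1. The part of liver RNA in the members' values was not tested.

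In the GENCODE M21 annotation (GRCm38) all 10 are protein-coding genes. Prdx6 (ENSMUSG00000026701) lies at chr1:161240112-161251219 on the minus strand, Gpx4 (ENSMUSG00000075706) at chr10:80047166-80056439 on the plus strand and Cat (ENSMUSG00000027187) at chr2:103453849-103485160 on the minus strand. Txn1 (ENSMUSG00000028367) and Prdx1 (ENSMUSG00000028691) are both on chromosome 4, at 57943373 to 57956411 on the minus strand and at 116685544 to 116700822 on the plus strand. Prdx2 (ENSMUSG00000005161), at chr8:84969587-84974834 on the plus strand, overlaps Rnaseh2a by 181 bases and Junb by 351, both on the other strand and with 0 to 5 counts per library. Sod1 (ENSMUSG00000022982), at chr16:90220754-90226329 on the plus strand, overlaps Scaf4 by 650 bases, which had 1 to 6 counts. Gpx1 (ENSMUSG00000063856) lies at chr9:108338903-108340343 and Sod2 (ENSMUSG00000006818) at chr17:13006846-13040063, both on the plus strand, and Prdx5 (ENSMUSG00000024953) at chr19:6906697-6910106 on the minus strand.

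Promoter sequences in RefSeq (GRCm38.p6, 250 bases before to 50 after a start) matched 9 of the 10 members, with 12 starts in all, and Prdx6 is named only. CpG dinucleotides, the sites that DNA methyltransferases modify, numbered 11 in the Cat and Gpx1 promoters, 19 in Prdx1, 21 in Sod2, 22 in Prdx5, 26 in Txn1, 27 in Prdx2 and 34 in Sod1, where the median of 32851 promoters was 7. Gpx4 has 4 listed starts, which held 3, 31, 26 and 29. The letters TGACNNNGC, the core of the antioxidant response element that NRF2 binds, were searched on both strands. They were present in Prdx1 and Sod1, which is 2 of the 12 member promoters, against 12.4% of all 32851 promoters.

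Other peroxidases and dismutases were few in these libraries. Of 15 listed genes 4 passed the filter, 2 had log2 fold changes above 0 and 2 below, and 0 had an unadjusted p under 0.05. Prdx3, the thioredoxin-dependent peroxiredoxin of mitochondria, averaged 147 ± 14.03 CPM under Dnmt3a+/- and 136 ± 9.52 CPM under WT (SD, n = 4 each; log2 fold change 0.11, SE 0.10). Prdx4, the peroxiredoxin of the endoplasmic reticulum, averaged 18.01 ± 3.66 CPM under Dnmt3a+/- and 17.3 ± 3.56 CPM under WT (log2 fold change 0.06, SE 0.18). The leukocyte peroxidases Mpo and Epx and the gland enzyme lactoperoxidase (Lpo) had at most 1 count in any library, and the extracellular dismutase Sod3 had 1 to 15.

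The partners that keep peroxiredoxins working included 1 very abundant transcript. Srxn1, sulfiredoxin, which rescues over-oxidised peroxiredoxins, averaged 999 ± 59.3 CPM under Dnmt3a+/- and 1005 ± 81.4 CPM under WT (SD, n = 4 each; log2 fold change -0.0091, SE 0.09). Its mean TPM was 419 under Dnmt3a+/- and 412 under WT, below Prdx6, Gpx4 and Cat and above the group means of every other member. Of 13 tested thioredoxin partners 6 lay above 0 and 7 below (median -0.0091), and 0 passed. Txnip, the inhibitor that binds thioredoxin, averaged 5.16 ± 1.54 CPM under Dnmt3a+/- and 7.96 ± 2.24 CPM under WT (SD, n = 4 each). Its values of 3.76, 3.96, 6.01 and 6.90 CPM in Dnmt3a+/- replicates 1 to 4 overlapped the 5.99, 10.6, 9.10 and 6.19 CPM of WT replicates 1 to 4 (log2 fold change -0.62, SE 0.25, edgeR adjusted p = 0.972). Msrb2, a mitochondrial methionine sulphoxide reductase, averaged 11.6 ± 2.03 CPM under Dnmt3a+/- and 8.79 ± 1.22 CPM under WT (SD, n = 4 each), without overlap between the labels, as in 2.54% of genes (log2 fold change 0.40, SE 0.16, edgeR adjusted p = 0.972). Msrb1, a selenoprotein of the same kind, averaged 53.1 ± 8.96 CPM under Dnmt3a+/- and 49.5 ± 5.64 CPM under WT (SD, n = 4 each; log2 fold change 0.10, SE 0.14).

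Glutathione genes gave no member past the threshold. Of 14 tested genes of glutathione synthesis and recycling 7 lay above 0 and 7 below (median 0.01). Gclm, the regulatory subunit of the rate-limiting ligase, averaged 439 ± 54.8 CPM under Dnmt3a+/- and 379 ± 34.4 CPM under WT (SD, n = 4 each; log2 fold change 0.21, SE 0.11), and G6pdx, which supplies NADPH, 200.4 ± 6.59 CPM under Dnmt3a+/- and 209 ± 20.1 CPM under WT (log2 fold change -0.06, SE 0.09). Me1, malic enzyme, another source of NADPH, averaged 1.49 ± 1.36 CPM under Dnmt3a+/- and 4.31 ± 3.13 CPM under WT (SD, n = 4 each; log2 fold change -1.53, SE 0.67, edgeR adjusted p = 0.986). Of 12 tested glutathione S-transferases 2 lay above 0 and 10 below (median -0.26), where 49% of all genes tested lay above 0, and this split was not tested. The median was -0.07 without WT replicate 1, -0.12 without Dnmt3a+/- replicate 4 and -0.16 without Dnmt3a+/- replicate 2. Mgst1 averaged 0.87 ± 0.31 CPM under Dnmt3a+/- and 9.13 ± 7.83 CPM under WT (SD, n = 4 each; log2 fold change -3.39, SE 0.70, edgeR adjusted p = 0.647), and Gsta3 1.03 ± 0.49 CPM under Dnmt3a+/- and 2.63 ± 1.25 CPM under WT (log2 fold change -1.34, SE 0.45, edgeR adjusted p = 0.732). Both are also liver genes: Mgst1 stood at 18.8 and 11.9 CPM in WT replicates 3 and 4, where Alb was highest and hepatocyte markers took 0.217% and 0.173% of counts. The part of liver RNA in the values of Mgst1 and Gsta3 was not tested either. The more abundant transferases Gsto1 and Gsta2 had log2 fold changes of -0.05 (SE 0.13) and -0.28 (SE 0.17).

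The NRF2 list, which covers the regulator of antioxidant genes and some of its targets, had 15 tested genes, 8 above 0 and 7 below (median 0.05). Nqo2, a quinone reductase, averaged 71.7 ± 4.81 CPM under Dnmt3a+/- and 59.7 ± 5.45 CPM under WT (SD, n = 4 each; log2 fold change 0.27, SE 0.10, edgeR adjusted p = 0.889), and the labels overlapped. Sqstm1, an autophagy adaptor, and Blvrb, biliverdin reductase B, led this list in TPM and had log2 fold changes of 0.13 (SE 0.10) and -0.05 (SE 0.21). Among oxidant sources 8 genes were tested, 2 above 0 and 6 below (median -0.16, and 0.03 without WT replicate 1), where 49% of all genes tested lay above 0. Rac1, a GTPase that activates NADPH oxidase and has wider roles in the cytoskeleton, averaged 1772 ± 80.6 CPM under Dnmt3a+/- and 1799 ± 95.6 CPM under WT, and Cyba, the p22phox subunit, 27.8 ± 8.92 CPM under Dnmt3a+/- and 34.2 ± 8.69 CPM under WT (SD, n = 4 each). Cybb, the catalytic subunit of the phagocyte oxidase, had 3 to 28 counts per library, and the NADPH oxidase genes Nox1, Nox4, Duox1 and Duox2 had at most 4.

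Other selenoprotein genes share the selenocysteine machinery with Gpx1 and Gpx4. Their list also holds genes of selenoprotein synthesis, such as Sepsecs, and the selenium-binding Selenbp1, which is not a selenoprotein. It leaves out Msrb1, which is counted with the thioredoxin partners. The list had 13 tested genes, 2 above 0 and 11 below (median -0.10), and 0 passed. Of all genes tested 49% lay above 0, and the split of the list was not tested. Selenop, the plasma selenium carrier, averaged 73.6 ± 9.64 CPM under Dnmt3a+/- and 91.5 ± 9.56 CPM under WT (SD, n = 4 each). Its values of 87.4, 72.8, 65.6 and 68.6 CPM in Dnmt3a+/- replicates 1 to 4 overlapped the 99.2, 79.4, 99.1 and 88.4 CPM of WT replicates 1 to 4 (log2 fold change -0.31, SE 0.12, edgeR adjusted p = 0.881). Selenof and Selenow led this list in TPM, with log2 fold changes of -0.07 (SE 0.10) and -0.10 (SE 0.14). Of 9 tested genes of ferroptosis, the iron-dependent death by lipid peroxides that Gpx4 holds back, 3 lay above 0 and 6 below (median -0.04). The ferritin subunits Fth1 and Ftl1, which store iron and have many processed copies in the genome that may share their reads, led it at mean levels of 33320 and 9539 TPM under Dnmt3a+/- and 31120 and 9582 TPM under WT, with log2 fold changes of 0.08 (SE 0.12) and -0.04 (SE 0.19).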

How the data were processed

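Platelet RNA of 8 mice was sequenced from stranded libraries of polyadenylated RNA, per the labels' protocols. The authors deposited an estimated count, already whole, and a TPM value for every gene and library. The submitters' processing notes list cutadapt, STAR, RSEM and DESeq2 with build mm10, without roles or versions. Annotation and strand setting are not given in the sources used here.

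Counts were tested with edgeR 4.0.16 under R 4.3.3 (TMM factors, filterByExpr with a minimum count of 10 and total of 15, glmQLFTest, Benjamini-Hochberg over 7362 genes). No sample was left out and there was no covariate. Each standard error is the log2 fold change over the root of its F statistic. The median standard error was 0.22. Alternatives used RLE and upper-quartile factors, no filter, a mean of at least 5 CPM, DESeq2 1.42.0, limma 3.58.1 on log2(TPM + 1) of genes with a mean TPM of at least 1, the replicate number as a block, and samples left out. The GC-corrected fit (lowess, span 0.3) and the summed Gpx4 count were added after seeing the data. Deviations use log2(CPM + 0.5). The test was checked on simulated data.

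No 2 libraries agreed within sampling noise: chi-square over genes was at least 10.3 per degree of freedom. Coordinates come from GENCODE M21 on GRCm38, the same assembly as mm10, which holds 55141 of the 55487 identifiers.

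The members and lists were chosen with earlier results of these data known. Named genes are the 10 members, set marker genes, the 3 genes nearest to the profiles of the 2 members with the largest SD, and, from each of 8 further lists, the 2 with the highest mean TPM and up to 2 per direction with the smallest unadjusted p under 0.05. Genes outside the rule were named after their values were seen.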

Additional observations from a re-analysis of the deposited data

Results flagged for a closer look

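In each group of 4 libraries, the highest or lowest value was compared with the rest by its gap over the range, for the 10 members and 9 library measures, which is 38 groups in all. Chance alone marks about 1 in 20 groups, and 4 were marked. The groups are not independent, since some measures are built from the members' values and the member sum enters both in TPM and as a percent. The number marked was therefore not compared with chance. Gpx4 in WT replicate 1 stood at 1725 CPM, against 1074 to 1163 CPM in the other WT libraries. Prdx2 in WT replicate 1 stood at 43.9 CPM, against 12.9 to 17.6 CPM in the other WT libraries. The red cell marker share was 2.05% in WT replicate 1, where WT replicates 2 to 4 had 0.210% to 0.319%. The mitochondrially encoded share was 24.8% in WT replicate 3, where WT replicates 1, 2 and 4 had 16.7% to 17.8%.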

How the results depend on the processing

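No member passed under any of the 16 alternatives chosen with the design or the 2 added later. The directions of Prdx1, Prdx6, Txn1, Sod2 and Cat were the same in all 18. Prdx5, at -0.0017 over all libraries, was positive with upper-quartile factors (0.0126), without a filter (0.0141), with limma (0.0346) and with GC-corrected offsets (0.041), and ran from -0.15 to 0.13 with 1 library left out. Sod1 was 0.0029 with limma and ran from -0.0943 to 0.0423 with 1 library left out. With 1 library left out, Gpx1 ran from -0.27 to 0.12, Gpx4 from -0.225 to 0.0782 and Prdx2 from -0.65 to 0.11, each positive without WT replicate 1 only. The cause was not tested. With 1 library left out, list medians changed sign for the members (-0.03 to 0.11, highest without WT replicate 1), thioredoxin partners (-0.05 to 0.05), glutathione synthesis (-0.04 to 0.04), the NRF2 list (-0.06 to 0.09), oxidant sources (-0.27 to 0.03), ferroptosis (-0.10 to 0.04) and other peroxidases (-0.22 to 0.07), and stayed below 0 for glutathione S-transferases (-0.38 to -0.07) and selenoproteins (-0.16 to -0.05). Over all genes the count past the threshold was 0, against 250 without a filter (246 lower), 9 with DESeq2 and 1 without Dnmt3a+/- replicates 3 and 4, and from 0 to 135 with 1 library left out, 135 without WT replicate 1. With the replicate block 0 genes passed, and the log2 fold change of Txn1 was 0.27 (edgeR adjusted p = 0.721). Same-numbered libraries did not pair, with correlations of their deviations from -0.098 to 0.114 and 3 of 8 libraries correlating best with their own number. Depth limits Sod2 most, at 71 to 177 counts.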
